A study of Mus musculus with 6 samples.

Results

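The G1 cyclins are a family of 5 genes, the D-type cyclins Ccnd1, Ccnd2 and Ccnd3 and the E-type cyclins Ccne1 and Ccne2. They were taken by gene symbol from a table of 24043 genes, and all 5 were listed. Of the 5, 4 were among the 11573 genes tested, those whose mean over the 6 libraries reached 1 FPKM. FPKM is the number of fragments scaled by transcript length and by library total. Levels of different genes can be set side by side where the transcript present has the length used. For a deleted gene that is not known. RNA-seq was done on mouse embryonic stem (ES) cells, pluripotent cells of the early embryo, in 3 wild-type libraries and 3 libraries labelled Q-KO, whose genotype label states the absence of every G1 cyclin. The culture medium of both groups held LIF together with PD184352, which inhibits MEK, and CHIR99021, which inhibits GSK3. The strain, the deleted exons, and whether the libraries of a group came from separate clones or cultures are not stated in the labels, so the p-values reflect no more than the spread over these libraries, possibly a technical one.

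D-type cyclins bind and activate the kinases CDK4 and CDK6, and E-type cyclins bind CDK2. Both kinase complexes phosphorylate the retinoblastoma protein and its relatives, which frees E2F transcription factors to drive entry into S phase. Somatic cells make D-type cyclins when mitogens are present and make cyclin E late in G1 through E2F, whereas mouse ES cells are known for a short G1 phase and for cyclin E that is present through much of the cycle.

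The values were gene-level, so a promoter, an exon pattern or an overlapping gene can each bear on what they contain. Ccnd3 and Ccne1 are the members with an entry in the promoter table used here. They are shown for that reason. They also had the highest mean in wild-type and Q-KO libraries respectively. A gene-level value adds up the transcripts of the 2 listed Ccnd3 starts. The sequences are the 250 bases before each listed start, 5′ to 3′, from RefSeq on build GRCm38.p6, which is not the mm9 build named for these libraries. Capitals mark GC boxes, the letters GGGCGG on either strand.
Ccne1, chr7:38107491-38107740, minus strand: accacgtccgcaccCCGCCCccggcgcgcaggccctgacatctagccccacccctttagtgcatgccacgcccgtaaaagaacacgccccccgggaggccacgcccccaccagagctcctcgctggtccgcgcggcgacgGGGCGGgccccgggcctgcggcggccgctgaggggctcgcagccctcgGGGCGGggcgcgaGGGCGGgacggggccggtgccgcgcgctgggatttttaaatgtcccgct
Ccnd3 upstream start, chr17:47504801-47505050, plus strand: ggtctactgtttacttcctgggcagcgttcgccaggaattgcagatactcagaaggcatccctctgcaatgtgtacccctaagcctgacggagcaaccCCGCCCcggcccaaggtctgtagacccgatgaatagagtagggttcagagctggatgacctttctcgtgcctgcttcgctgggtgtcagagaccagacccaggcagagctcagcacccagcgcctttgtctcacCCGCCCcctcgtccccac
Ccnd3 downstream start, chr17:47593217-47593466, plus strand: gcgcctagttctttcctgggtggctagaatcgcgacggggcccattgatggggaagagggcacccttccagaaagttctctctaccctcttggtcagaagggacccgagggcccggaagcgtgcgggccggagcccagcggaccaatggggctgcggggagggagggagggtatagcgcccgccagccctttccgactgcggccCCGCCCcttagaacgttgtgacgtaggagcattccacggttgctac
The Ccne1 window held 4 GC boxes, the upstream Ccnd3 window 2 and the downstream one 1. At least 1 GC box was found in 32.7% of 32851 promoter windows of this length. None of the 3 windows held the E2F site spellings TTTCCCGC (0.895% of windows) or TTTGGCGC (0.417%) or the E-box CACGTG (6.02%), searched on both strands. TGACGT, part of the cAMP response element, occurred once, in the downstream Ccnd3 window (6.47% of windows). These matches describe letters, not binding. The 2 Ccnd3 starts lie 88.4 kb apart.

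The libraries had between 11032 and 11591 genes at 1 FPKM or more. The depth of sequencing was not given. The step between low values put the other libraries at 1.10 to 1.22 times the depth of wild-type replicate 1. All 12 ES cell markers examined, among them Pou5f1, Sox2 and Nanog, were at 9.34 FPKM or more in every library. Wild-type replicate 3 stood apart from wild-type replicates 1 and 2. It listed all 5 Y-linked genes examined above 0, as did the 3 libraries labelled Q-KO, whereas wild-type replicates 1 and 2 listed all 5 at 0. Its log2 values correlated across genes with those of wild-type replicates 1 and 2 at r of 0.957 and 0.942, and theirs with each other at 0.973. Wild-type replicates 1 and 2 correlated with the Q-KO libraries at 0.946 to 0.955, and wild-type replicate 3 at 0.924 to 0.932. What the difference of wild-type replicate 3 and what the genotype contribute cannot be told apart over the whole wild-type group. A model that adds a Y-linked term compares the 3 libraries labelled Q-KO with wild-type replicate 3 alone. Its wild-type arm is thus 1 library, assumed to vary like the others, and its values are given as a description of that library.

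The comparison of the libraries labelled Q-KO with the wild-type ones asks how much transcript of each deleted cyclin the gene-level values still hold. Of the 4 members tested, Ccnd3, Ccnd1 and Ccne2 were lower and passed the test, and Ccne1 was higher and did not pass. By the same rule, limma with a Benjamini-Hochberg adjusted p under 0.05, 4.06% of all genes tested passed, 1.02% lower and 3.04% higher. Each of the 4 was at 2.82 FPKM or more in all libraries, so none entered the test through 1 group alone. The groups did not overlap for any of the 4, which was also so for 27.7% of all genes tested (9.44% lower and 18.2% higher). In a bulk library, fewer cells with a transcript and less transcript per cell cannot be told apart. Ccne1, and Ccnd2 below the filter, had no lower mean in the libraries labelled Q-KO. A gene-level value cannot tell a shortened transcript from an intact one, so directions are stated for libraries as labelled.

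**Figure D1:**
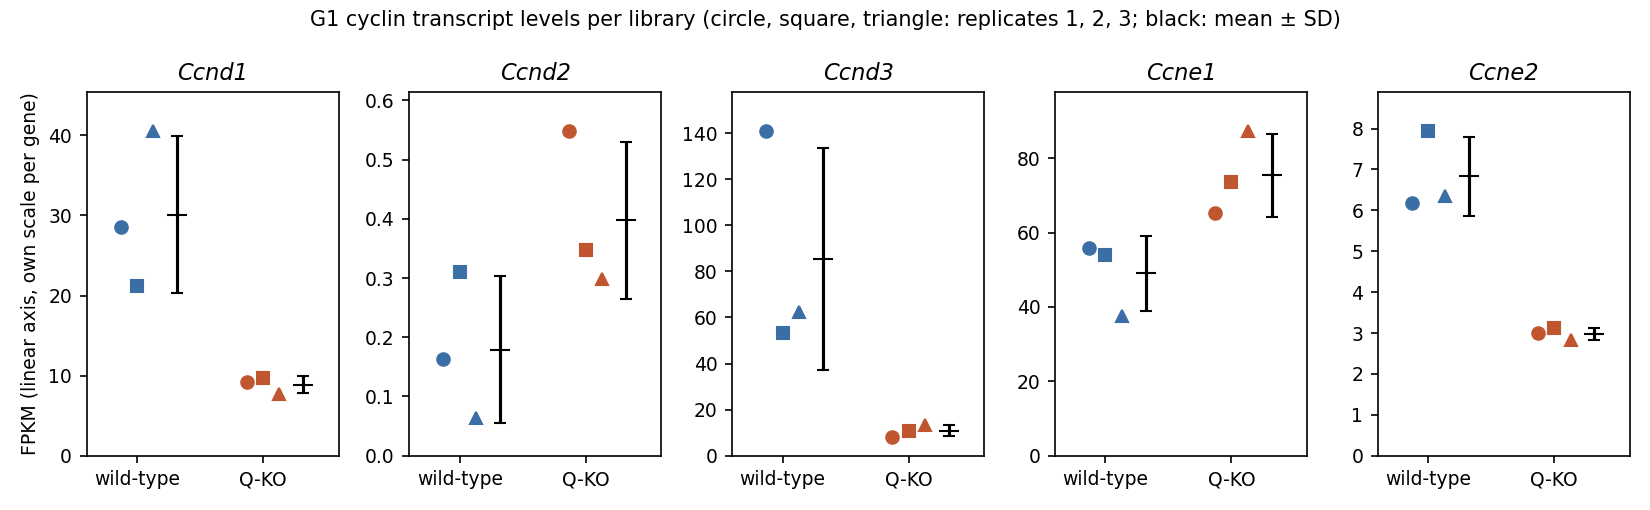
FPKM of each G1 cyclin (y axis, linear, a separate scale for each gene) in the 3 wild-type libraries (blue) and the 3 libraries labelled Q-KO (orange), with the symbol showing the replicate number and black bars the mean ± SD. Ccnd1, Ccnd3 and Ccne2 lie below all wild-type libraries, Ccne1 lies above them, and Ccnd2 overlaps at 0.0640 to 0.548 FPKM.

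Ccnd3 encodes cyclin D3, which was the most abundant G1 cyclin by mean level in wild-type libraries. Its wild-type level was 141, 53.4 and 62.3 FPKM in the order of the replicate numbers, and its level in the libraries labelled Q-KO was 8.29, 10.9 and 13.2 FPKM. The 2 groups were far apart, as the lowest wild-type value was 4.05 times the highest Q-KO value. Wild-type replicate 1 lay well above the other wild-type libraries, which set the wild-type SD (coefficient of variation 56.4%, against 22.7% in the Q-KO group). The libraries labelled Q-KO kept 12.6% ± 2.87 of the wild-type mean (SD of the Q-KO libraries alone, n = 3). The wild-type mean was taken as fixed, so the wild-type spread is not in that SD, here or for the remainders of Ccnd1 and Ccne2. On the log2(FPKM + 1) scale Ccnd3 fell by 2.76 (SE 0.35, limma adjusted p = 0.0101). It fell by 2.34 without wild-type replicate 1 (adjusted p = 0.0126), and the call was lost without Q-KO replicate 2 (adjusted p = 0.0782) or Q-KO replicate 3 (adjusted p = 0.051).

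Ccnd1 encodes cyclin D1, the D-type cyclin most closely tied to mitogen and ERK signals. Its wild-type values were 28.5, 21.1 and 40.6 FPKM, and its values in the libraries labelled Q-KO were 9.20, 9.74 and 7.73 FPKM. Here wild-type replicate 3, not replicate 1, was the highest library, and the lowest wild-type value was 2.17 times the highest Q-KO value. The remaining level was 29.6% ± 3.47 of the wild-type mean (SD of the Q-KO libraries alone, n = 3). This remainder was larger than that of Ccnd3 in each of the 3 libraries. The log2 change was -1.61 (SE 0.23, limma adjusted p = 0.0124). Against wild-type replicate 3 alone, the highest wild-type library for this gene, it was -2.08. The call was lost without Q-KO replicate 2, Q-KO replicate 3 or wild-type replicate 1 (adjusted p of 0.0846, 0.0664 and 0.06).

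Ccnd2 encodes cyclin D2, a D-type cyclin of many differentiated lineages, and was near the floor of the table. It was listed at 0.163, 0.310 and 0.0640 FPKM in wild-type and at 0.548, 0.347 and 0.299 FPKM in the libraries labelled Q-KO. The groups overlapped, since wild-type replicate 2 exceeded Q-KO replicate 3. Ccnd2 was below the filter, and an exact two-sided permutation test over the libraries gave p = 0.2, where 3 against 3 libraries cannot go below 0.1. A fit over all genes listed above 0 gave a log2 change of 0.25 (SE 0.10, limma adjusted p = 0.25). A change of Ccnd2 was not detectable at these levels.

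Ccne1 encodes cyclin E1 and was the one tested member whose mean was higher in the libraries labelled Q-KO. In wild-type it was measured at 55.9, 53.9 and 37.5 FPKM, and in the libraries labelled Q-KO at 65.3, 73.5 and 87.3 FPKM, in replicate order. Every Q-KO value was above every wild-type value, by a margin of 1.17 times between the nearest libraries. The Q-KO mean was 1.54 times the wild-type mean, or 0.62 on the log2 scale (SE 0.19), and did not pass (limma adjusted p = 0.113). Wild-type replicate 3 was the lowest library. Against that library alone, in the model with the Y-linked term, the log2 change was 0.98 (limma adjusted p = 0.0292, with the spread taken from the other libraries), and without it 0.44 (limma adjusted p = 0.175). By rank in the table, Ccne1 stood between positions 1461 and 2122 of 24043 in wild-type and between 1029 and 1243 in Q-KO libraries.

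Ccne2 encodes cyclin E2, the less abundant partner of CDK2. The wild-type libraries gave 6.19, 7.94 and 6.36 FPKM, and those labelled Q-KO gave 3.00, 3.12 and 2.82 FPKM. The Q-KO libraries were tightly grouped, with a coefficient of variation of 5.09%, and the lowest wild-type value was 1.98 times the highest of them. The remaining level was 43.6% ± 2.22 of the wild-type mean (SD of the Q-KO libraries alone, n = 3). This was the largest remainder among the 3 members that fell. The log2 change was -0.97 (SE 0.16, limma adjusted p = 0.0182), and against wild-type replicate 3 alone it was -0.89 (limma adjusted p = 0.0534). It was also lost without wild-type replicate 1 or Q-KO replicate 1, 2 or 3 (adjusted p of 0.0652, 0.0634, 0.112 and 0.0665).

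The order of the levels differed between the groups. Scaling by a listed length takes each transcript as intact, and the deleted exons are not stated. The order, sums and shares of members in the libraries labelled Q-KO are uncertain to that extent. In wild-type libraries the order by mean was Ccnd3, Ccne1, Ccnd1, Ccne2 and Ccnd2. The ranges of Ccnd3 and Ccne1 overlapped, and so did those of Ccne1 and Ccnd1, each pair holding that order in 2 of 3 libraries. In the libraries labelled Q-KO, Ccne1 led, with a mean 6.98 times that of Ccnd3, and was the highest in 3 of 3 libraries. Ccnd3 and Ccnd1 overlapped there at means of 10.8 and 8.89 FPKM. Ccne2 and Ccnd2 were the lowest members in both groups, each separated from its neighbours.

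Summed over the family, the G1 cyclins stood at 172 ± 52.2 FPKM in wild-type libraries and 98.5 ± 12.5 FPKM in those labelled Q-KO (mean ± SD, n = 3 per group). The D-type sum was 170, 74.8 and 103 FPKM in the wild-type libraries against 18.04, 20.99 and 21.22 FPKM in the Q-KO ones. The E-type sum was 62.1, 61.8 and 43.9 FPKM against 68.3, 76.6 and 90.2 FPKM. The D-type sum was thus separated downward and the E-type sum upward, with exact two-sided permutation p = 0.1 for each, the smallest value possible, and 0.117 after adjustment over 7 sums, shares and ratios.

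The composition of the G1 cyclin pool does not depend on how a library is scaled. E-type cyclins made up 26.8%, 45.2% and 29.9% of the summed G1 cyclin FPKM in wild-type replicates 1, 2 and 3 and 79.1%, 78.5% and 81.0% in Q-KO replicates 1, 2 and 3. Ccne1 alone was 29.7% ± 8.46 of the pool in wild-type and 76.5% ± 1.71 in those labelled Q-KO (mean ± SD over 3 libraries each). Ccnd3 went from 47.4% ± 11.7 to 10.9% ± 1.15 of the pool, and Ccnd1 from 18.5% ± 8.08 to 9.19% ± 1.98. The E-type cyclins themselves shifted, as the log2 ratio of Ccne1 to Ccne2 was 2.83 ± 0.31 in wild-type and 4.65 ± 0.27 in Q-KO libraries. The log2 ratio of Ccne1 to Ccnd3 went from -0.68 ± 0.68 to 2.82 ± 0.14. Both ratios and the E-type share had separate groups (exact two-sided permutation p = 0.1, adjusted 0.117).

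**Figure D2:**
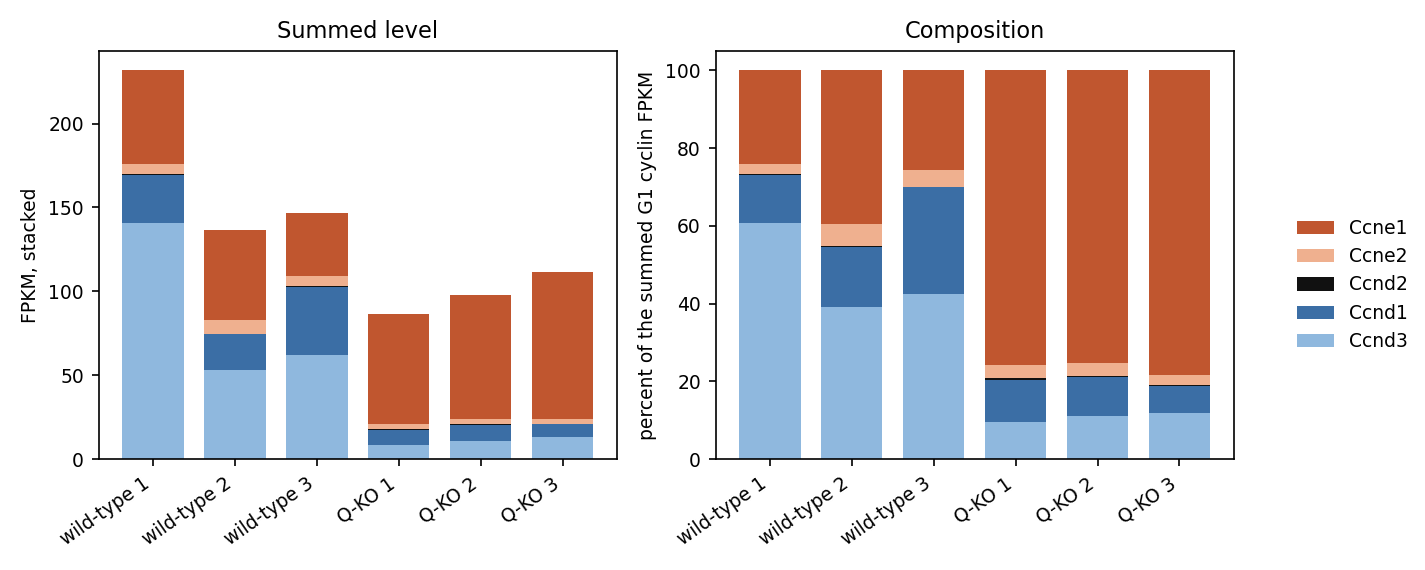
Stacked FPKM of the 5 G1 cyclins in each library (left, y axis in FPKM from 0) and the same values as percent of their sum (right). The orange parts, Ccne1 and Ccne2, fill 26.8% to 45.2% of the wild-type bars and 78.5% to 81.0% of the Q-KO bars.

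The share of the pool depends also on the cyclins it is set against. Of the A- and B-type cyclins of S phase and mitosis, Ccna2, Ccnb1 and Ccnb2 had lower means in the libraries labelled Q-KO too. The means were 96.6 and 68.8 FPKM for Ccna2, 186 and 125 FPKM for Ccnb1, and 84.7 and 64.1 FPKM for Ccnb2. Groups were separate for each, as they were in this direction for 9.44% of all genes tested. Ccnb1 passed the test and Ccna2 and Ccnb2 did not (limma adjusted p = 0.128 and 0.126). Ccna1 and Ccnb3, below 1 FPKM in all libraries and not tested, had overlapping groups and no lower mean. G1 cyclins were 37.7%, 26.3% and 30.4% of the summed FPKM of A-, B-, D- and E-type cyclins in wild-type libraries and 24.6%, 27.7% and 30.4% in the libraries labelled Q-KO. The groups overlapped (exact two-sided permutation p = 0.5). Of the summed FPKM of all 27 cyclins listed, G1 cyclins were 17.4% ± 4.24 in wild-type and 12.6% ± 2.11 in those labelled Q-KO (mean ± SD over 3 libraries each). Ccne1 was 5.0% ± 0.81 of that total in wild-type libraries and 9.67% ± 1.83 in the others.

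What a remaining gene-level value holds depends on which exons a deletion takes and on what else lies there. In the GENCODE M21 models, the principal transcript of Ccnd1 has 5 exons, with 76.3% of its 3740 bases outside the coding part. The share outside the coding part is 86.3% for Ccnd2, 58.5% for Ccnd3, 38.8% for Ccne1 and 59.7% for Ccne2. Transcripts that lack a few coding exons would still be counted through all others, so these values alone cannot tell a shortened transcript from an intact one. The strand setting is not given, and 3 of the 4 members tested share exon bases with a gene on the opposite strand. Ccnd1 shares 23.4% of its exon bases with Oraov1 (also called Lto1), Ccne2 shares 17.4% with Ints8, and Ccnd3 shares 4.11% with Bysl. Ccne1 shares none. Ints8, an Integrator complex gene, was at 26.9, 29.5 and 25.2 FPKM in wild-type and 25.5, 26.4 and 23.8 FPKM in Q-KO libraries, above Ccne2 in each. Oraov1 was at 5.26, 5.59 and 4.59 FPKM and at 5.92, 7.70 and 6.25 FPKM. Values of Ccnd1, Ccnd3 and Ccne2 are therefore uncertain by an amount that was not tested.

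Markers of fibroblasts, the usual feeder cells of ES cell cultures and cells that express D-type cyclins, were examined as well. The 17 fibroblast markers summed to 8.10 to 9.16 FPKM in wild-type libraries and to 17.1, 10.5 and 9.52 FPKM in Q-KO replicates 1, 2 and 3, and 8 of the 17 were below 1 FPKM in all libraries. The collagen gene Col1a1 was at 1.86 FPKM in Q-KO replicate 1 and at no more than 0.168 FPKM in the other 5 libraries. Of the 17, 11 were highest in Q-KO replicate 1, and 4 were at 0 in at least 1 library, Dcn and Prrx1 among them. Mmp2, a matrix protease gene, was at 1.048, 1.423 and 1.168 FPKM in wild-type and 3.67, 3.15 and 2.76 FPKM in those labelled Q-KO (log2 change 0.92, SE 0.17, limma adjusted p = 0.0306). Pdgfrb and Twist1, below the filter and not tested, were also higher with separate groups. Their wild-type and Q-KO means were 0.442 and 1.15 FPKM for Pdgfrb and 0.499 and 1.13 FPKM for Twist1. Thy1 and Fbln2 ran the opposite way. Thy1 was at 1.42, 1.83 and 2.75 FPKM in wild-type against 1.36, 0.828 and 0.819 FPKM (log2 change -0.57, limma adjusted p = 0.196), and Fbln2 had means of 1.84 and 1.27 FPKM with overlapping groups. Mmp2, Pdgfrb, Twist1, Thy1 and Fbln2 are named after their values were seen. The remaining Ccnd1 of Q-KO replicate 1 (9.20 FPKM) lay between those of Q-KO replicates 2 and 3. Ccnd2 was highest in Q-KO replicate 1 (0.548 FPKM). The part of fibroblast transcript in the values of Ccnd1, Ccnd2 and the other members was not tested.

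The genes next to the members were compared in the same way. The 3 nearest protein-coding genes on each side of each member gave 30 neighbours, all listed and 20 of them tested. Of the 20, 1 passed, AI661453, which entered the test only through the group where it is high, so the count is no result about the neighbours. An unadjusted p under 0.05 was found for 2 of the 20 and for 21.5% of all genes tested. Their median log2 change was 0.18, beside 0.07 for all genes tested. AI661453 is the second neighbour of Ccnd3 on one side. It was at 0.599, 0.912 and 0.379 FPKM in wild-type and 2.20, 3.19 and 2.95 FPKM in those labelled Q-KO (log2 change 1.22, SE 0.21, limma adjusted p = 0.0213). Its wild-type mean was below the filter, and its call held in 3 of the 6 fits that left out 1 library (highest adjusted p 0.126). The immediate neighbours of Ccnd3 did not pass: Taf8, a TFIID subunit gene, changed by -0.20 (limma adjusted p = 0.484), and Bysl, a ribosome assembly factor gene, by 0.17 (limma adjusted p = 0.664).

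Next to the other members no gene passed. At Ccne1, the neighbours Uri1 (log2 change 0.18) and 1600014C10Rik (0.31) and the next gene, Plekhf1, were above 0. Plekhf1 was at 14.5, 13.7 and 9.92 FPKM in wild-type and 15.5, 21.1 and 23.9 FPKM in those labelled Q-KO (log2 change 0.63, SE 0.20, limma adjusted p = 0.131), with wild-type replicate 3 lowest, as for Ccne1. It is named after its values were seen. At Ccnd1, Oraov1 had a log2 change of 0.31 (limma adjusted p = 0.311), and 1810010D01Rik was at or below 0.101 FPKM in all libraries. At Ccnd2, the flanking 9630033F20Rik (Tigar, a fructose bisphosphatase gene of the p53 response) and Parp11 had log2 changes of 0.19 and 0.22 (limma adjusted p = 0.516 and 0.542). At Ccne2, Trp53inp1 and Ints8 had 0.26 and -0.11 (limma adjusted p = 0.457 and 0.674). The chromosomes themselves were close to the whole, with a median log2 change of 0.09 over 884 tested genes of chromosome 7, 0.07 over 576 of chromosome 17 and 0.09 over 704 of chromosome 4.

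**Figure D3:**
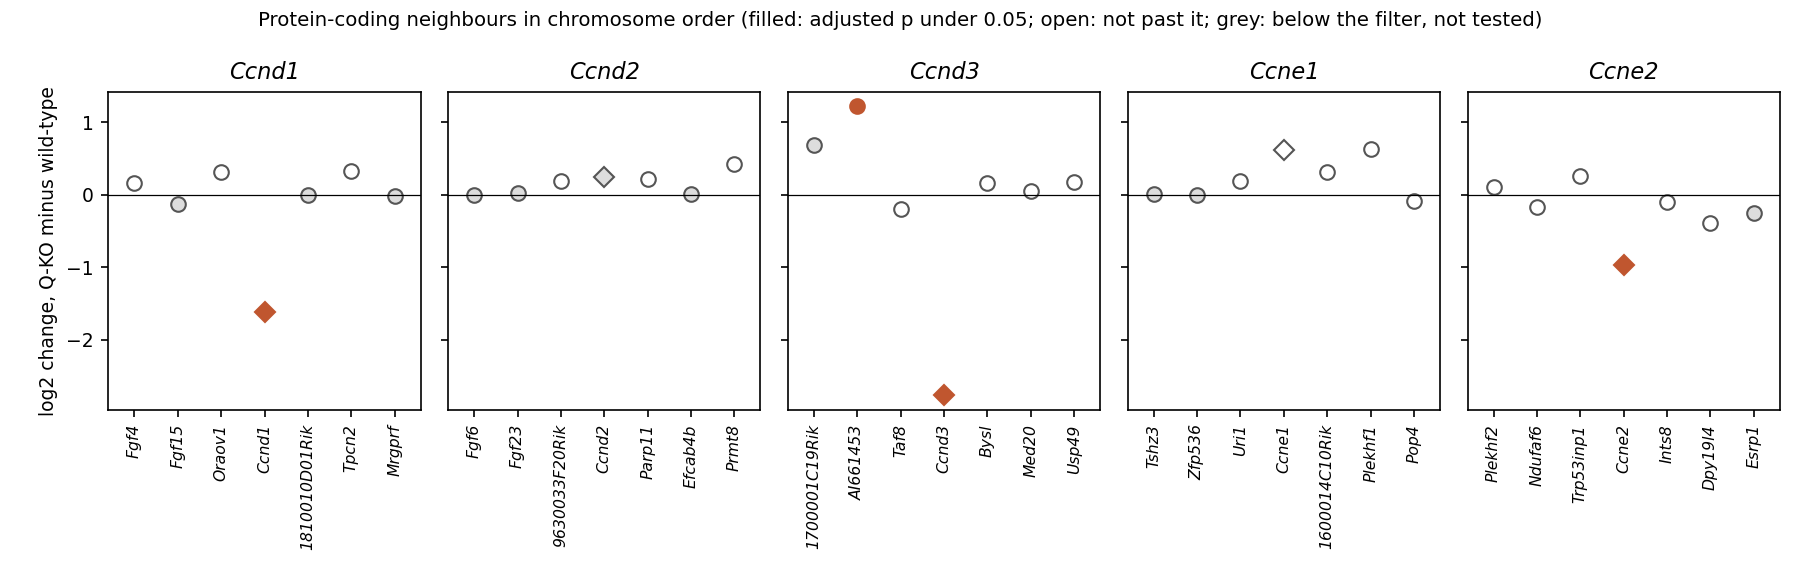
Log2 change (y axis, Q-KO minus wild-type) of each G1 cyclin (diamond) and its 3 nearest protein-coding genes on each side (circles), in chromosome order, with filled orange symbols for limma adjusted p under 0.05, open ones for genes that did not pass and grey ones for genes below the filter. The fall of Ccnd3 (-2.76) is drawn with AI661453 (1.22), a gene that met the filter only through its Q-KO values, and no neighbour of Ccnd1 or Ccne2 passed.

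Of 13 tested partner kinases and their regulators, 0 passed limma's test (4.06% of all genes did) and 2 had an unadjusted p under 0.05 (21.5% of all genes), counts near those of all genes. Cdk4, the main partner of D-type cyclins and the most abundant of the list, was at 383, 326 and 293 FPKM in wild-type and 362, 372 and 419 FPKM in Q-KO libraries, with overlapping groups (log2 change 0.21, SE 0.15, limma adjusted p = 0.465). The list had a median log2 change of 0.10, close to that of all genes.

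Among 7 tested CDK inhibitors, 1 fell and 0 rose, where 1.02% of all genes fell and 3.04% rose. This was Cdkn1b, the gene of p27, which binds both cyclin D and cyclin E complexes. It went from 18.3, 22.5 and 20.4 FPKM to 8.90, 11.7 and 12.4 FPKM (log2 change -0.84, SE 0.16, limma adjusted p = 0.0323). Among 13 tested pocket protein, E2F and DP genes, 2 fell and 0 rose, against the same shares. E2f8, an E2F repressor, went from 8.316, 4.398 and 4.503 FPKM to 2.40, 2.03 and 1.30 FPKM (log2 change -1.18, limma adjusted p = 0.0488). Rbl1, the gene of the pocket protein p107, went from 11.1, 11.6 and 11.1 FPKM to 7.87, 6.52 and 5.80 FPKM (log2 change -0.68, limma adjusted p = 0.049). The groups were separate for all 3 genes, as for 27.7% of all genes tested. Against wild-type replicate 3 alone none of the 3 passed (limma adjusted p of 0.0723 for Cdkn1b, 0.148 for E2f8 and 0.123 for Rbl1). Of the fits that left out 1 library, the calls of Cdkn1b and E2f8 held in 1 each, that without wild-type replicate 3, and that of Rbl1 in 0 (highest adjusted p of 0.144, 0.191 and 0.229).

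The ubiquitin ligases and kinases that control cyclin turnover had 1 fall and 0 rises among 18 tested genes, close to the 4.06% called among all genes, with a median log2 change of 0.12. Usp28, a deubiquitinase that opposes the cyclin E ligase subunit Fbxw7, went from 31.96, 42.63 and 31.17 FPKM to 19.2, 19.9 and 17.3 FPKM (log2 change -0.86, SE 0.16, limma adjusted p = 0.0256). Its groups were separate, and its call held in 2 of the 6 fits that left out 1 library, those without wild-type replicate 2 or 3 (highest adjusted p 0.128). Against wild-type replicate 3 alone the log2 change of Usp28 was -0.70 (limma adjusted p = 0.0934). Genes induced at G1/S had 1 called rise and 0 called falls among 28 tested, again close to the 4.06% of all genes, with a median of -0.06. Of the 28, 18 had a log2 change below 0 and 10 above. Groups were separate and lower for 6 (9.44% of all genes) and separate and higher for 4 (18.2%). The called gene, Ung, a uracil DNA glycosylase gene, thus did not have the direction of most of the list. It rose from 49.7, 43.8 and 39.1 FPKM to 67.7, 67.0 and 72.8 FPKM (log2 change 0.64, SE 0.13, limma adjusted p = 0.0397). Its call held in 0 of the 6 fits that left out 1 library (highest adjusted p 0.18), and median-of-ratios scaling ended it (log2 change 0.51, limma adjusted p = 0.0797).

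Among 19 other tested cyclins, 1 fell and 0 rose, a share close to the 4.06% of all genes. Ccnb1, cyclin B1, changed by -0.57 (SE 0.12, limma adjusted p = 0.037), a call that held in 0 of 6 fits that left out 1 library (highest adjusted p 0.193). The gene has close copies, and the part of their reads in its values was not tested. Against wild-type replicate 3 alone, with the replicate number as a block and without intensity trend, Ccnb1 did not pass (limma adjusted p of 0.119, 0.0818 and 0.0526). The falls of Ccnd3 and Ccnd1 were larger than those of all the called members of these 6 lists.

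**Figure D4:**
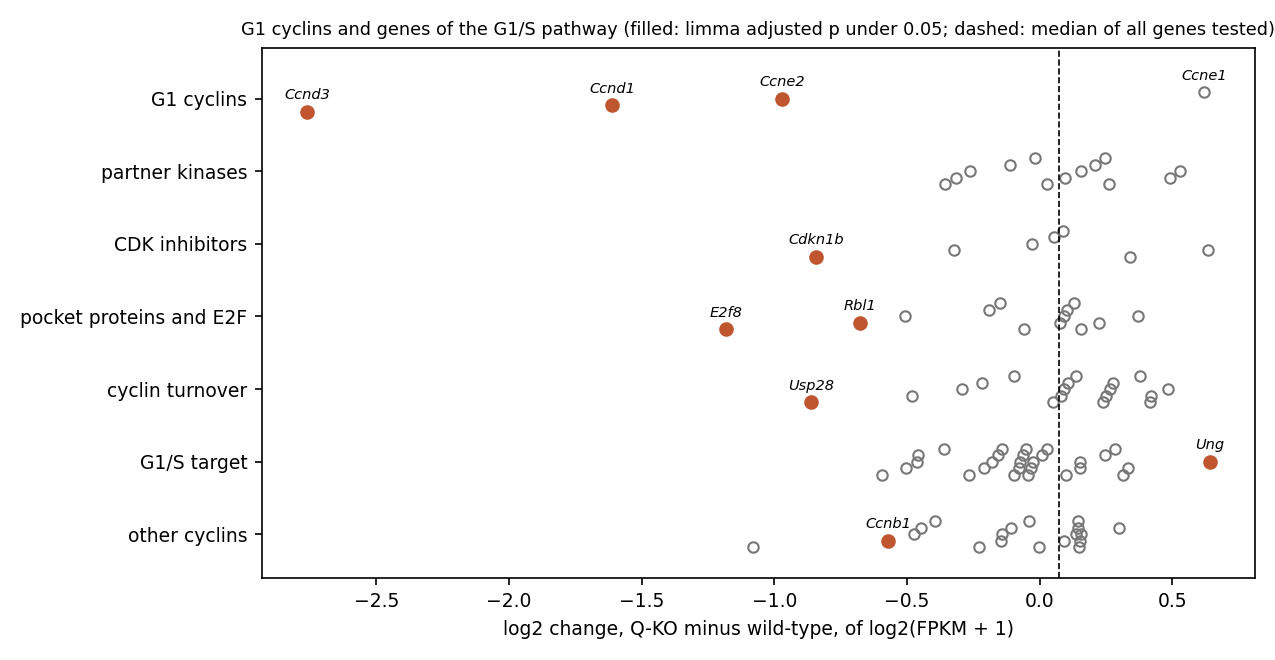
Log2 change (x axis, Q-KO minus wild-type, of log2(FPKM + 1)) of the 4 tested G1 cyclins and of the tested genes of 6 lists of the G1/S pathway, 1 point per gene, filled where limma's adjusted p was under 0.05. The dashed line is the median of all genes tested (0.07), and Ccnd3 (-2.76) and Ccnd1 (-1.61) lie to the left of all list members.

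The genes whose pattern over the 6 libraries was most like that of each member were found by Pearson's r of log2(FPKM + 1) among 10779 other genes. With 6 libraries in 2 separate groups, high r values are common, and r is a description only. For Ccnd3 the closest were Samm50, a mitochondrial outer membrane assembly gene (r = 0.993), Psat1, a serine synthesis gene (r = 0.992), and Slc9a3r2 (r = 0.989). For Ccnd1 they were Dennd1a (r = 0.999), Gatsl3 (r = 0.994) and Prdm1 (r = 0.989), and for Ccne2 Gnb4 (r = 0.999), Itgal (r = 0.998) and Dync1i2 (r = 0.997). For Ccne1 they were Dynll1, a dynein light chain gene (r = 0.996), Htra2, a mitochondrial protease gene (r = 0.996), and Adck5 (r = 0.993). Between members, Ccnd1 and Ccnd3 had r = 0.897, while Ccne1 had r of -0.927 with Ccnd1 and -0.678 with Ccnd3. The genes like Ccnd3 were picked on these same libraries, so sharing its high value in wild-type replicate 1 is no separate result. Samm50 was at 152 FPKM there, against 130 and 129 FPKM in wild-type replicates 2 and 3.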

How the data were processed

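The values are FPKM, deposited by the authors as 1 table over all libraries. STAR 2.5, Cufflinks, bcl2fastq 2.16, CASAVA and build mm9 are named, without roles, per the submitters' processing notes. No source used here gives the annotation, strand setting or depth. 1 stray header row was dropped. Samples were grouped by title. Genes whose mean reached 1 FPKM were tested as log2(FPKM + 1) with limma 3.58.1 in R 4.3.3 (intensity trend, two-sided, Benjamini-Hochberg over all genes, threshold 0.05), with no block. The log scale understates changes of low genes. Sums, shares and ratios were compared by exact permutation over the libraries. On simulated data for this comparison with 11573 genes, limma found 6 of 50 genes with a 1.5-fold change, 30 of 50 with a 2-fold one and 48 of 50 with a 4-fold one, and 9 of 142 calls were false. Neighbours came from RefSeq (GRCm38.p6), with older symbols matched, and promoter entries were found for Ccnd3 and Ccne1. The text names the 5 members, called list members (up to 4 per list), the most abundant gene of a list without a call, called and immediate neighbours, and the 3 genes most like each member, without predicted, microRNA and snoRNA genes. Members and lists were chosen with earlier results of these data known.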

Additional observations from a re-analysis of the deposited data

How the results depend on the processing

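All 5 members kept their direction under each alternative run. No median-of-ratios or quantile scaling, pseudocount of 0.1, robust fit or fit without intensity trend ended the call of Ccnd1, Ccnd3 or Ccne2, and neither did the absence of a filter. A mean of at least 5 FPKM removed Ccne2 from the test. Leaving out 1 library gave log2 changes of -1.83 to -1.38 for Ccnd1, 0.17 to 0.33 for Ccnd2, -3.03 to -2.34 for Ccnd3, 0.44 to 0.72 for Ccne1 and -1.03 to -0.87 for Ccne2, and 28 to 566 genes past the threshold in place of 470. The counts of calls then ran from 0 to 1 for CDK inhibitors, for pocket proteins and E2F, for cyclin turnover, for other cyclins and for neighbours, and were 0 for G1/S targets. With the term for Y-linked transcripts, 894 genes passed, with a wild-type arm of 1 library, Ccne1 passed (0.98, adjusted p = 0.0292), Ccne2 did not (-0.89, adjusted p = 0.0534), and calls were 0 for CDK inhibitors, 0 for pocket proteins and E2F, 2 for G1/S targets and 2 for neighbours. With a mean of at least 5 FPKM, 266 genes passed, with 0 calls for pocket proteins and E2F and 0 for neighbours. With no filter the calls were 0 for CDK inhibitors, 0 for pocket proteins and E2F and 2 for neighbours. Without intensity trend they were 1 for pocket proteins and E2F, 0 for G1/S targets and 0 for other cyclins. Median-of-ratios scaling gave 2 for cyclin turnover and 2 for G1/S targets, quantile normalization 2 for each of these and 2 for other cyclins, and a robust fit 2 for G1/S targets and 2 for other cyclins. A count does not show which genes passed: Ung was not among the G1/S calls after median-of-ratios scaling (adjusted p = 0.0797), and Usp28 (0.0934) and Ccnb1 (0.119) did not pass with the Y-linked term. The causes were not tested. Median-of-ratios scaling moved the median of all genes by -0.12, and rises were 74.9% of all calls as deposited, 55.7% after that scaling and 57.0% after quantile normalization. With the replicate number as a block, 333 genes passed, Ccnd3 (adjusted p = 0.0225), Ccnd1 (0.0318) and Ccne2 (0.0431) kept their calls, and calls were 1 for pocket proteins and E2F and 0 for G1/S targets, while Rbl1 (0.0895), Ung (0.0839) and Ccnb1 (0.0818) lost theirs. Deviations of same-numbered libraries correlated at -0.0282, 0.0121 and 0.0218, so the numbers are not shown to pair them.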

Other observations

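A pair of the other cyclins with separate, lower values in the libraries labelled Q-KO is given here, chosen after the values were seen. Of the 19 other cyclins tested, 8 had a log2 change above 0 and 11 below. Cntd1, a cyclin-like gene needed for meiotic crossovers, had wild-type levels of 1.77, 3.24 and 3.58 FPKM and levels of 0.490, 0.679 and 1.26 FPKM in the libraries labelled Q-KO. The groups were separate, as they were in this direction for 9.44% of all genes tested. The log2 change of -1.08 (SE 0.26) did not pass (limma adjusted p = 0.0611). The Q-KO mean of Cntd1, 0.810 FPKM, was below the filter, so the gene entered the test only through its wild-type values. Ccno, a cyclin of multiciliated cells, was at 1.37, 1.16 and 0.702 FPKM and at 0.405, 0.565 and 0.361 FPKM, below the filter and not tested.

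Near Ccnd3, the third neighbour on the side of AI661453, 1700001C19Rik, was below the filter. It was at 0.102, 0.251 and 0.416 FPKM in wild-type and at 1.049, 0.817 and 1.195 FPKM in Q-KO libraries, which were again separate. In a fit over all genes listed above 0 its log2 change was 0.69 (limma adjusted p = 0.04995), which was only just under the threshold. It was named after its values were seen.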
